A study of Mus musculus with 19 samples.

Results

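Transcription factors of the trophectoderm and genes of the later placenta were followed in mouse embryonic stem cells. The cells were with or without the RNA-binding proteins Trim71 and Lin28a. The trophectoderm is the outer layer of the blastocyst that builds the placenta. The genes, taken by name, are Cdx2, Gata3, Tfap2c, Eomes, Gata2, Hand1, Ascl2, Plac1 and Esx1, 9 of the 21685 genes in the table. Expression was measured by mRNA sequencing in male C57BL/6 cells grown in serum with leukaemia inhibitory factor and sorted with magnetic beads for SSEA-1, a surface antigen of embryonic stem cells. In each genotype name the state of Trim71 stands before that of Lin28a. WT-WT cells carry floxed alleles of both genes (Trimfl/fl - Lin28afl/fl, n = 4 libraries), KO-WT cells lack Trim71 (Trim-/- - Lin28afl/fl, n = 4), WT-KO cells lack Lin28a (Trimfl/fl - Lin28a-/-, n = 5) and KO-KO cells lack both (Trim-/- - Lin28a-/-, n = 5). Per the labels' protocols, Trim71 was mutated in floxed cells by a 2-day exposure to 4-hydroxytamoxifen at 500 nM, with a harvest no sooner than 7 days afterwards; how the floxed cells were handled over that time is not given in the sources used here. Each Lin28a state comes from its own clones, 1 and E3 for intact and 1-4 and C1 for null. The effect of Lin28a state and that of clone cannot be told apart. Libraries of 1 clone are not shown by the labels to be separate derivations, so the p-values measure the spread between these libraries.

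Values are log2 normalised expression as deposited, with differences between harvest days already removed, and the number of reads behind each value is unknown. A gene was tested where it reached log2 of 10, or 3.32, in at least 4 libraries, which 14988 genes did. It is called where the limma p-value, adjusted by the Benjamini-Hochberg method over those genes, is under 0.05. Of the 9 genes 8 were tested; Cdx2 stayed below the filter, and its statistics come from a fit without the filter. KO-WT replicate 5, whose values equal the mean of the other 4, was left out. The targeted transcripts went the way of their labels: mean Trim71 was 10.21 in WT-WT, 8.89 in KO-WT, 10.65 in WT-KO and 9.28 in KO-KO, and mean Lin28a was 10.13, 9.84, 8.47 and 8.28 in the same order. Of 12 embryonic stem cell markers, 11 passed the filter, Pou5f1, Nanog and Sox2 among them, and Fut4 did not.

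In the blastocyst, low Hippo signalling in the outer cells lets the co-activator Yap1 and the DNA-binding factor Tead4 switch on Cdx2 and Gata3, while the inner cells keep Pou5f1 and Nanog. Tfap2c and Eomes then help to maintain trophoblast stem cells, and Hand1, Gata2, Ascl2, Plac1 and Esx1 act in the layers of the placenta that form later. Embryonic stem cells come from the inner cells and normally give rise to little trophoblast. Lin28a blocks the maturation of let-7, a family of microRNAs that repress mRNAs carrying a match to their seed, and Trim71 is itself a let-7 target that represses other mRNAs.

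Sequences of these genes are described before their expression. The mature let-7 RNA is shown because Lin28a acts on it, and the single match among the 9 genes is shown beneath it. In the list of mature mouse microRNAs from RefSeq, 8 let-7 sequences share the seed GAGGUAG, in capitals below. The matching letters CTACCTC occur in the longest annotated 3′ untranslated region (GENCODE M21) of 1 of the 9 genes, Hand1, starting at base 801 of 894. They occur in 1542 of 15114 genes of the table (10.2%), so 1 of 9 is near that share. The match is a description of these letters and not a measured site.
mmu-let-7a-5p: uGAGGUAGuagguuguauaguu
Hand1 match: cccccaccctctttCTACCTCaa

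Promoters, taken as 250 bases before to 50 bases after the annotated start (RefSeq, GRCm38.p6), were in the table for 7 of the 9 genes, as 9 promoters; those of Hand1 and Tfap2c are not analysed here. They were searched on both strands for 5 short motifs. AP-2 letters (GCCNNNGGC), bound by the family of Tfap2c, were in promoters of 3 genes (Cdx2, Gata2 and Gata3) and in 16.6% of the 32851 promoters of the table. The other motifs each occurred in 1 gene: TEAD letters (GGAATG) in Gata2 and in 14.7% of all promoters, GATA letters (AGATAA) in Plac1 and 11.2%, the E-box CACGTG in Esx1 and 7.15%, and the octamer ATGCAAAT, bound by Pou5f1, in Cdx2 and 1.74%. No pair of these motifs shares a base in the promoters printed. The 4 promoters below carry the matches to the families of the genes studied, with each match in capitals. Gata3 holds 3 AP-2 matches in a row, the first at base -246. Cdx2 holds the octamer at base -147 and an AP-2 match at -16, the letters bound by Pou5f1 and by the family of Tfap2c. Gata2 holds an AP-2 match at -222 and a TEAD match at -120, and Plac1 a GATA match at -246, the letters read by Gata2 and Gata3. The other promoter of Gata2 and the other promoter of Plac1 hold no match to the 5 motifs. The shares above count promoters, while the matches among the 7 genes are counted by gene. The TEAD and GATA matches lie on the opposite strand and appear as their reverse complement.
Gata3, chr2:9878551-9878850, minus strand: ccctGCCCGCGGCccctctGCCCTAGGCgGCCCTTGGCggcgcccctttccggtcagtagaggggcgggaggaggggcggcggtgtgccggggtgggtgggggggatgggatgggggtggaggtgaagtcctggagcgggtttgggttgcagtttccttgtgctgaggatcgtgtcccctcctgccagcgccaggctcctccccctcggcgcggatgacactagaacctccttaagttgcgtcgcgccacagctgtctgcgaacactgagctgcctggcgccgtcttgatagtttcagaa
Cdx2, chr5:147307200-147307499, minus strand: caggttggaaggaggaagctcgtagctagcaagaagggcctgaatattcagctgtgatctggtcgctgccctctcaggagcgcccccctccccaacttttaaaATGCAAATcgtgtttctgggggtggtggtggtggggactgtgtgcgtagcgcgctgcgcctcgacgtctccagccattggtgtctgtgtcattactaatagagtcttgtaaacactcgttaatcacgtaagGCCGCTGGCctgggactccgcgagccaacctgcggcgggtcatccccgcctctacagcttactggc
Gata2, chr6:88198414-88198713, plus strand: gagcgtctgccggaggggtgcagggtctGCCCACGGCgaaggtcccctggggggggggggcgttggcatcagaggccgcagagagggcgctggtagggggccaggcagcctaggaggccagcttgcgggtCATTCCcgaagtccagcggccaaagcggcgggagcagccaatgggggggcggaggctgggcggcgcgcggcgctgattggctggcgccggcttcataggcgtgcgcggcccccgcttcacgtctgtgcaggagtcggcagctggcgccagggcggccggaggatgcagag
Plac1, chrX:53240061-53240360, minus strand: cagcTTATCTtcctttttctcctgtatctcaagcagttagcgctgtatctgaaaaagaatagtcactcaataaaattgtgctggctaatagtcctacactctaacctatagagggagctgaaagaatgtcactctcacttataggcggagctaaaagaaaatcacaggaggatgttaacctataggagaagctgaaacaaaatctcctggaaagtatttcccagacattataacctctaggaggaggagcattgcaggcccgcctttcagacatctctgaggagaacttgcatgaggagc

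Loss of Lin28a went with lower expression of 7 of the 9 genes, whether or not Trim71 was present, while Eomes and Tfap2c stayed near their Lin28a-intact level. Hand1 fell most, 7.34-fold with Trim71 intact and 6.92-fold without Trim71. Gata3, Plac1, Esx1 and Ascl2 fell 2.06-fold to 2.77-fold in the 2 comparisons, and Cdx2 and Gata2 fell 1.29-fold to 1.77-fold. Of the 8 tested genes, 6 were called lower with Trim71 intact, where 22.0% of all tested genes were called lower, and 6 were called lower without Trim71, also against 22.0%. Plac1 passed the filter only through its Lin28a-intact libraries and so had to differ, which leaves 5 of the other 7. For 7 of the 9 genes the lowest of the 8 Lin28a-intact libraries lay above the highest of the 10 Lin28a-null libraries, which was so for 18.8% of all tested genes. The median log2 difference of the 9 genes was -1.04 with Trim71 intact and -1.13 without Trim71, beside -0.004 and 0.0013 over all 21685 genes.

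**Figure D1:**
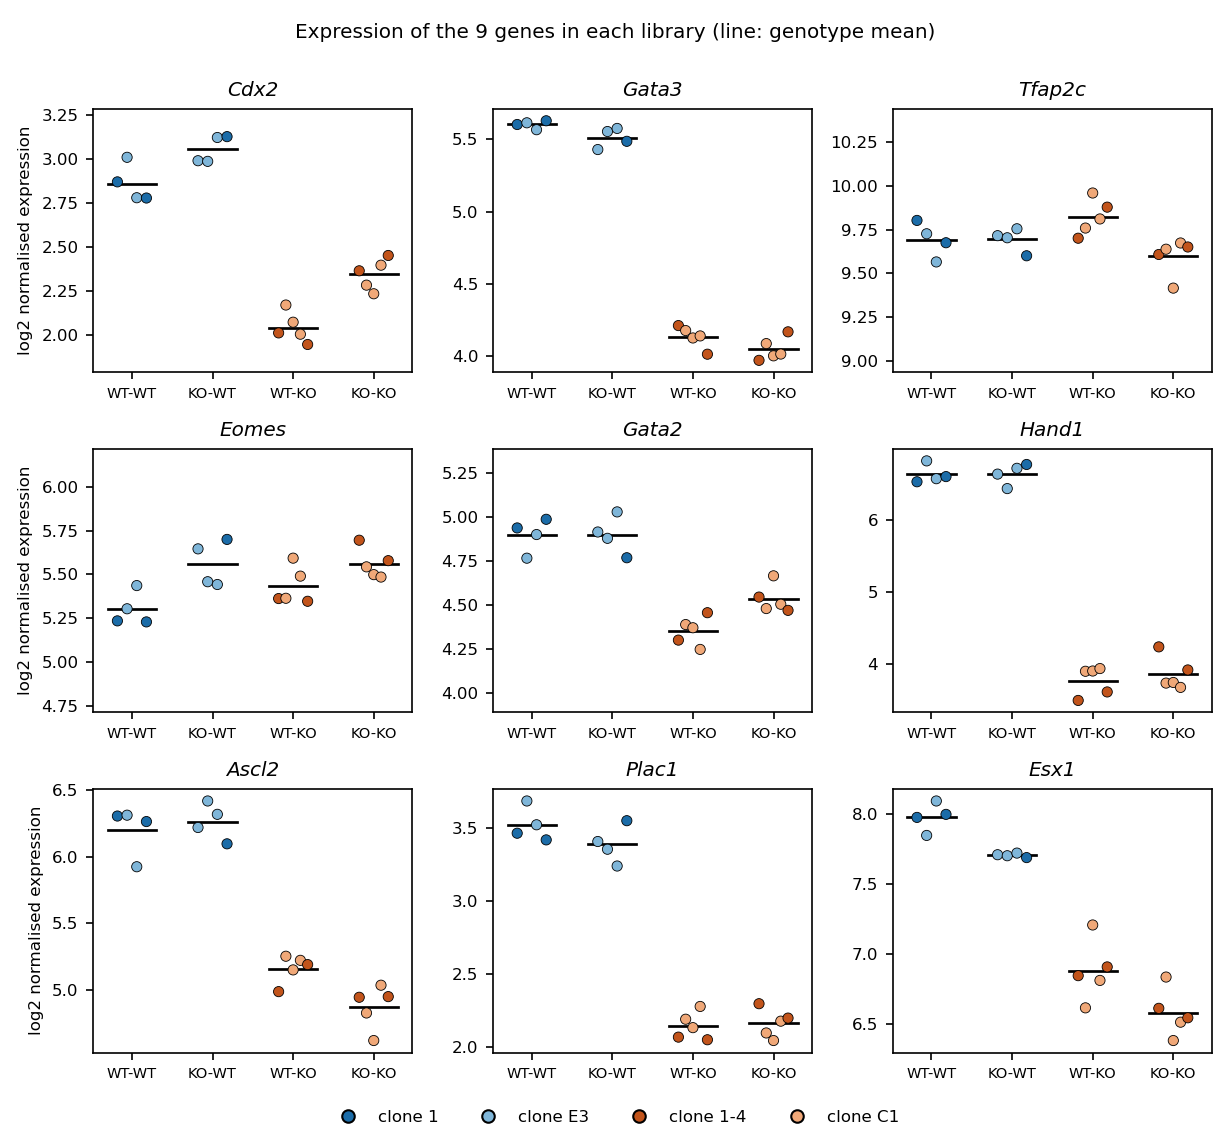
Log2 normalised expression of each gene (vertical axis, with its own scale in each panel) in the 18 libraries, by genotype (horizontal axis) and coloured by clone; the lines are genotype means. Of the 9 panels, 7 show every Lin28a-null library (WT-KO and KO-KO) below every Lin28a-intact library, and in those of Tfap2c and Eomes the Lin28a states overlap.

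Cdx2 is the homeobox factor that commits cells to the trophectoderm. Its log2 level was 2.87, 3.01, 2.78 and 2.78 in the WT-WT libraries and 2.99, 2.99, 3.12 and 3.13 in KO-WT. In WT-KO it was 2.01, 2.17, 2.07, 2.00 and 1.94, and in KO-KO 2.36, 2.28, 2.23, 2.40 and 2.45. All 4 genotypes were low for this gene, and the Lin28a-null libraries lay below the Lin28a-intact ones without overlap. The mean difference after Lin28a loss was -0.82 ± 0.0746 (SE) with Trim71 intact, and without Trim71 it was -0.71 ± 0.0746. Both passed in the limma fit without the filter, at adjusted p-values of 3.46e-07 and 1.74e-06, where 19.1% of all genes were called lower in each comparison.

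Gata3 acts beside Cdx2 as a trophectoderm factor under Tead4. WT-WT libraries read 5.60, 5.61, 5.57 and 5.63, and KO-WT libraries 5.43, 5.55, 5.58 and 5.49. WT-KO libraries read 4.21, 4.18, 4.12, 4.14 and 4.01, and KO-KO libraries 3.97, 4.09, 4.00, 4.01 and 4.17. The gap between the states, from 4.21 to 5.43, was wider than the range within either state. After Lin28a loss Gata3 differed by -1.47 ± 0.0712 where Trim71 was intact (adjusted p 2.8e-10) and by -1.46 ± 0.0712 where it was lost (adjusted p 4.14e-10). The promoter with 3 AP-2 matches printed above is that of this gene.

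Tfap2c, an AP-2 factor needed for trophoblast and also active in stem and germ cells, did not follow. It read 9.80, 9.73, 9.57 and 9.67 in WT-WT, 9.71, 9.70, 9.75 and 9.60 in KO-WT, 9.70, 9.76, 9.96, 9.81 and 9.88 in WT-KO and 9.61, 9.64, 9.42, 9.67 and 9.65 in KO-KO. The Lin28a states overlapped. The difference after Lin28a loss was 0.13 with Trim71 intact (95% interval -0.02 to 0.27, adjusted p 0.139) and -0.10 without Trim71 (-0.24 to 0.05, adjusted p 0.273). These intervals leave out a fall of the size seen in Gata3 or Hand1.

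Eomes, a T-box factor of trophoblast stem cells that also acts in mesendoderm, overlapped as well. The libraries read 5.24, 5.30, 5.44 and 5.23 in WT-WT, 5.65, 5.46, 5.44 and 5.70 in KO-WT, 5.36, 5.36, 5.59, 5.49 and 5.35 in WT-KO and 5.69, 5.54, 5.50, 5.49 and 5.58 in KO-KO. The lowest values, 5.23, 5.24 and 5.30, were in WT-WT and the highest, 5.70, in KO-WT. The difference after Lin28a loss was 0.13 with Trim71 intact (95% interval -0.05 to 0.31, adjusted p 0.241) and -0.001 without Trim71 (-0.18 to 0.18, adjusted p 0.991).

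Gata2, a zinc finger factor of trophoblast giant cells and of blood, fell least among the genes called. WT-WT libraries read 4.94, 4.77, 4.90 and 4.99 and KO-WT libraries 4.92, 4.88, 5.03 and 4.77. WT-KO libraries read 4.30, 4.39, 4.37, 4.25 and 4.46, and KO-KO libraries 4.55, 4.48, 4.67, 4.51 and 4.47. The highest Lin28a-null value, 4.67 in KO-KO, lay just below the lowest Lin28a-intact value, 4.77. The difference of Gata2 after Lin28a loss was -0.55 ± 0.0807 with Trim71 intact (adjusted p 5.97e-05). Without Trim71 it was -0.37 ± 0.0807 (adjusted p 0.0018). In clones 1 and 1-4 alone the second was -0.24 with an adjusted p of 0.332; these clones hold 1 KO-WT library, assumed to vary like the other genotypes.

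Hand1, a basic helix-loop-helix factor that drives the formation of trophoblast giant cells and also marks mesoderm, showed the widest gap. It read 6.54, 6.83, 6.58 and 6.61 in WT-WT and 6.64, 6.44, 6.73 and 6.78 in KO-WT. In WT-KO it read 3.49, 3.89, 3.90, 3.93 and 3.61, and in KO-KO 4.23, 3.73, 3.74, 3.67 and 3.91. No Lin28a-null library rose above 4.23 and no Lin28a-intact library fell below 6.44. The difference was -2.88 ± 0.132 with Trim71 intact (adjusted p 1.51e-10) and -2.79 ± 0.132 without Trim71 (adjusted p 2.94e-10). It is the gene of the 9 whose 3′ untranslated region holds the let-7 seed match; let-7 itself was not measured in these libraries.

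Ascl2, an imprinted basic helix-loop-helix factor that maintains the spongiotrophoblast, read 6.30, 6.31, 5.92 and 6.26 in WT-WT and 6.22, 6.42, 6.32 and 6.10 in KO-WT. WT-KO libraries read 4.99, 5.25, 5.15, 5.22 and 5.19 and KO-KO libraries 4.94, 4.82, 4.62, 5.03 and 4.95. The third WT-WT library was the lowest of the Lin28a-intact ones, at 5.92, and still above the highest Lin28a-null library, at 5.25. Lin28a loss lowered Ascl2 by -1.04 ± 0.109 with Trim71 intact (adjusted p 1.81e-06) and, in its absence, by -1.39 ± 0.109 (adjusted p 7.13e-08).

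Plac1, an X-linked gene of the trophoblast with a role in placental growth, read 3.46, 3.69, 3.52 and 3.42 in WT-WT and 3.41, 3.36, 3.24 and 3.55 in KO-WT. WT-KO libraries read 2.07, 2.19, 2.13, 2.28 and 2.05, and KO-KO libraries 2.30, 2.10, 2.04, 2.18 and 2.20. In every Lin28a-null library the gene lay below the filter of 3.32. The difference was -1.38 ± 0.0866 with Trim71 intact (adjusted p 5.88e-09) and -1.23 ± 0.0866 without Trim71 (adjusted p 2.1e-08), to be read with the way the gene passed the filter.

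Esx1, an X-linked homeobox factor of the labyrinth trophoblast, read 7.97, 7.84, 8.09 and 8.0 in WT-WT and 7.71, 7.70, 7.72 and 7.69 in KO-WT. WT-KO libraries read 6.84, 6.61, 7.21, 6.81 and 6.91, and KO-KO libraries 6.61, 6.83, 6.38, 6.51 and 6.54. The genotypes followed the order WT-WT, KO-WT, WT-KO, KO-KO in their means, with overlap only between WT-KO and KO-KO. The difference after Lin28a loss was -1.10 ± 0.107 with Trim71 intact (adjusted p 7.92e-07) and -1.13 ± 0.107 without Trim71 (adjusted p 5.81e-07).

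The same 7 genes were lower in 4 of 4 same-day pairs of libraries in each Lin28a comparison. Their Lin28a states do not overlap, so each of these pairs had to be lower. The same holds below for the pairs of any genotypes that do not overlap. A day effect common to the libraries of 1 day cancels in a same-day pair. Hand1 differed by -3.05 to -2.65 in the pairs with Trim71 intact and by -3.06 to -2.70 in those without Trim71. The pairs of Gata3 spread from -1.62 to -1.39 and from -1.56 to -1.32. Ascl2 and Esx1 were less even, Ascl2 from -1.32 to -0.70 and from -1.80 to -1.15, and Esx1 from -1.28 to -0.64 and from -1.32 to -0.87. Eomes was higher in 4 of 4 pairs with Trim71 intact, by 0.05 to 0.29, and in 2 of 4 without Trim71. Within the clone set E3 and C1, the calls of Gata2, Gata3, Hand1, Ascl2, Plac1 and Esx1 held in both Lin28a comparisons. That of Cdx2 held there without the filter. In the set 1 and 1-4, which holds 1 KO-WT library, the same genes were lower in both comparisons. There Gata2 differed by -0.59 with Trim71 intact and by -0.24 without Trim71. Each set compares 1 Lin28a-intact clone with 1 Lin28a-null clone, so its p-values measure the spread between libraries of the same clones. Hand1, for example, differed by -2.80 in the first set and by -3.03 in the second with Trim71 intact.

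**Figure D2:**
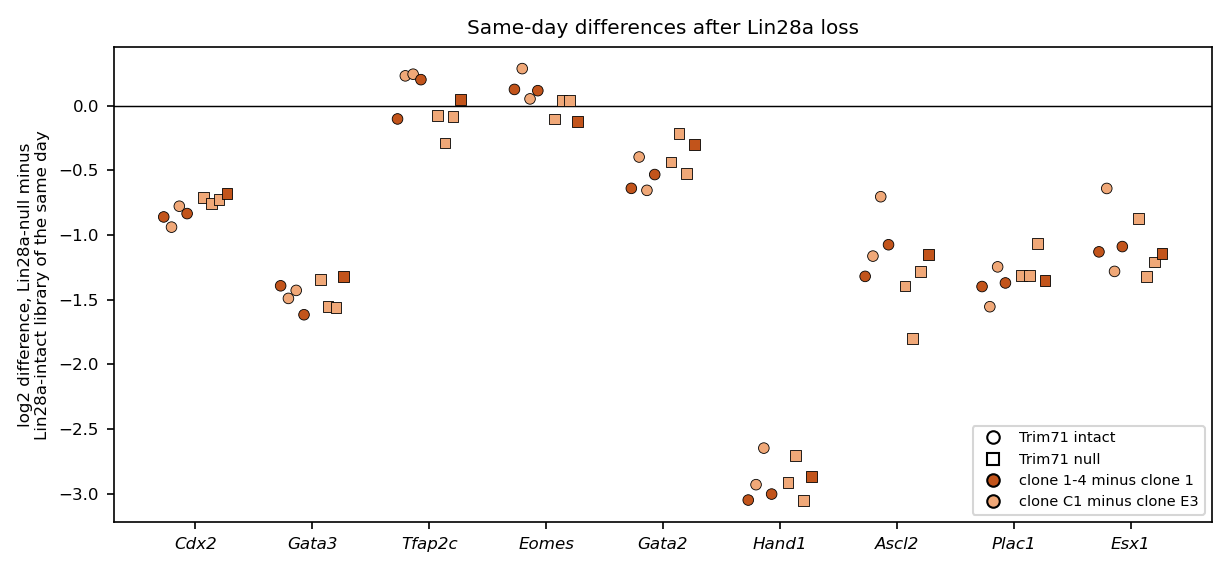
Log2 difference between a Lin28a-null library and the Lin28a-intact library harvested on the same day (vertical axis) for each gene (horizontal axis); circles have Trim71, squares lack it, and the colour gives the pair of clones. All 8 points of Hand1 lie between -3.06 and -2.65, and the points of Tfap2c and Eomes lie on both sides of 0.

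Other genes of the trophoblast were read from lists recalled from general knowledge. Among regulators of trophectoderm and trophoblast stem cells, 18 of 20 passed the filter; 11 were lower and 4 higher with Trim71 intact, and 8 were lower and 2 higher without Trim71. Of all tested genes, 22.0% were called lower in each state, and 20.3% with Trim71 intact and 20.8% without Trim71 were called higher, so the counts of higher regulators are near or below the background. The largest falls with Trim71 intact were those of Amot (-1.92, adjusted p 1.3e-07), a junction protein that holds Yap1 in the cytoplasm, Id2 (-1.74, adjusted p 8.11e-11), an inhibitor of basic helix-loop-helix factors that marks the trophectoderm, the Hippo kinase Lats2 (-0.96, adjusted p 1.96e-07) and Msx2 (-0.92, adjusted p 2.88e-06). Esrrb (0.63, adjusted p 1.27e-08) and Klf5 (0.58, adjusted p 1.11e-07) rose; both also serve the stem cell state. The other genes called higher with Trim71 intact were Sox21 (0.51, adjusted p 0.00321) and Satb1 (0.29, adjusted p 0.0221). In clones E3 and C1 alone 5 regulators were lower with Trim71 intact, in place of 11. Over all 14988 tested genes, 1283 were called lower in those clones, in place of 3302. The median of this list was -0.18 over the tested genes, beside -0.01 over all tested genes. Its summed level went the other way, from 12853 to 14082 units (2 raised to the value) in the Lin28a-intact libraries to 14183 to 15544 in the Lin28a-null ones. Elf5 and Tfap2a did not pass the filter.

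The epithelial genes of the trophectoderm moved further. Of 18 tested, 12 were lower and 2 higher with Trim71 intact, and 14 were lower and 2 higher without Trim71, with medians of -0.87 in both; the share of all tested genes called lower was 22.0% in each state, and the 2 called higher lie below the shares of 20.3% and 20.8%. The keratins led: Krt8 fell by 4.22 (adjusted p 1.66e-11), Krt18 fell by 4.20 (adjusted p 1.66e-11) and Krt7 fell by 3.19 (adjusted p 8.11e-11), followed by the basement membrane protein Tinagl1, which fell by 2.98 (adjusted p 4.3e-09). Cdh3, an adhesion protein of the trophoblast, was higher in both Trim71 states (0.64 and 0.52), and Aqp3 passed without Trim71 (0.54); neither difference between the states was called. Keratins are also made by primitive endoderm and other epithelia. Of 28 placental genes, 20 were in the table and 14 passed the filter; 11 were lower and 1 higher with Trim71 intact, and 12 were lower and 1 higher without Trim71, against the same shares. The imprinted RNA H19 fell by 5.11 (adjusted p 7.28e-13), Peg10, a retrotransposon-derived gene needed for the placenta, fell by 2.66 (adjusted p 2.7e-11), the growth factor Igf2 fell by 1.83 (adjusted p 4.27e-09) and the homeobox gene Rhox9 fell by 1.40 (adjusted p 3.79e-07). Phlda2, an imprinted brake on placental growth, rose by 1.06 (adjusted p 8.35e-09). Gcm1 and Syna, of the syncytiotrophoblast, did not pass the filter in any genotype. The placental hormone genes Prl3d1, Prl3b1 and Prl2c2, and Tpbpa, Synb, Ctsq, Pappa2 and Rhox4b, are not analysed here.

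**Figure D3:**
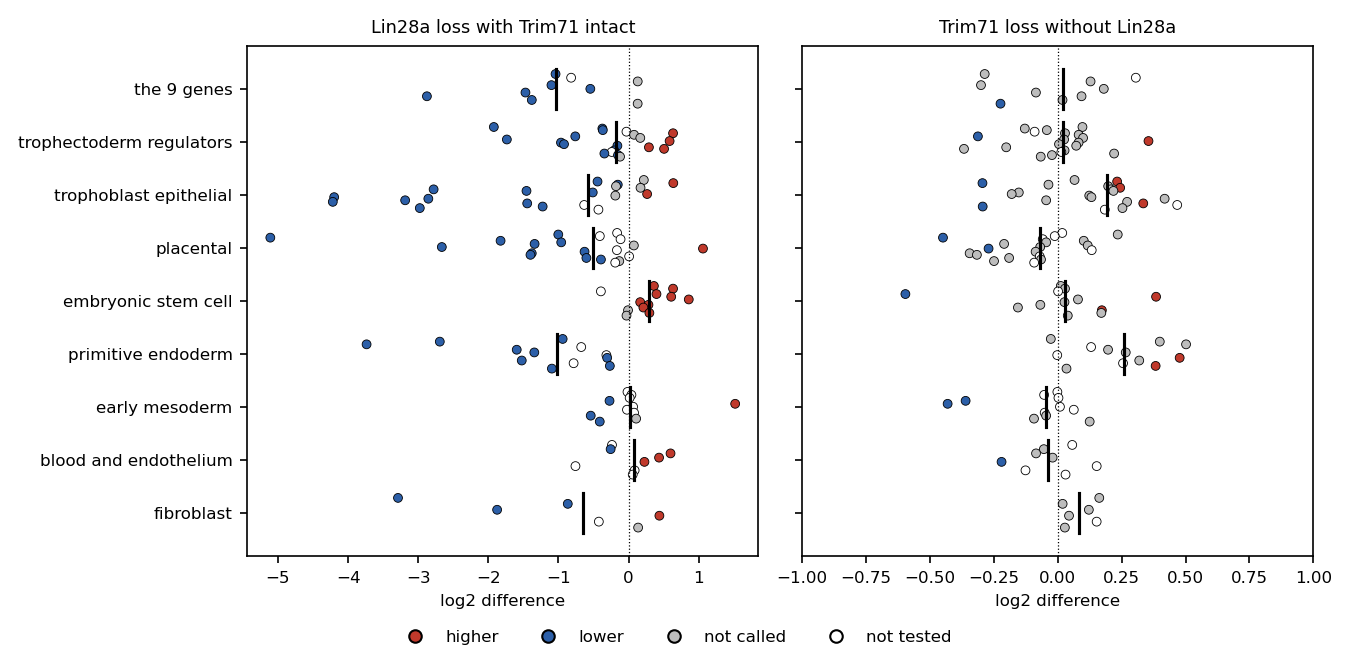
Log2 difference (horizontal axis) of every measured gene of each list (rows) after Lin28a loss with Trim71 intact (left) and after Trim71 loss without Lin28a (right, on a narrower scale); red genes were called higher, blue lower, grey were tested and not called, and white did not pass the filter. Black bars are list medians over the measured genes, -1.04 for the 9 genes on the left and 0.02 on the right.

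Markers of other cell types moved over the same libraries. The summed level of 12 primitive endoderm markers was 8965 to 9999 units in WT-WT, 9432 to 11345 in KO-WT, 3791 to 4662 in WT-KO and 4400 to 5231 in KO-KO. All 9 of them that passed the filter were called lower after Lin28a loss with Trim71 intact and 7 without Trim71, against 22.0% of all tested genes in each state, led by Cubn (-3.74, adjusted p 1.13e-09), Col4a1 (-2.69, adjusted p 7.29e-09) and Gata4 (-1.60, adjusted p 6.13e-07) in the first; Sox17, Foxa2 and Hnf4a were below it. Stem cell markers went the other way: 9 of 11 tested were higher with Trim71 intact, Nanog by 0.86 (adjusted p 3.44e-07), and 6 without Trim71, against 20.3% and 20.8% of all tested genes. Their sum was 41001 to 46376 units over the Lin28a-intact libraries of both Trim71 states and 50968 to 58189 over the Lin28a-null ones. The sum over 11 early mesoderm markers was 187 to 208 units in the Lin28a-intact libraries and 248 to 364 in the Lin28a-null ones, although 3 of its 5 tested genes were lower and Lefty2 alone higher (1.52), with T, Mixl1, Gsc, Fgf8, Hand2 and Msx1 below the filter. Markers of blood and endothelium summed to 1434 to 1990 and 2049 to 2607 units, with Tal1, Runx1, Cdh5 and Sox18 below the filter. Of 12 fibroblast markers 6 were in the table and summed to 4217 to 5108 units in the Lin28a-intact and 5994 to 7123 in the Lin28a-null libraries, although 3 of 5 tested were lower, Acta2 by -3.29 with Trim71 intact, and Fn1 alone was higher, with Pdgfrb below the filter. In these bulk libraries, fewer cells of a type and less RNA per cell cannot be told apart, and the part of these other cell types in the lower trophoblast genes was not tested.

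Trim71 loss moved the 9 genes little. With Lin28a intact, limma called 0 of the 8 tested genes, where 11.2% of all tested genes were called, and 2 of the 8 had an unadjusted p under 0.05 (Eomes and Esx1), as had 4376 of the 14988 tested genes. Without Lin28a it called 1, Tfap2c, where 8.38% of all tested genes were called, so this count is near the background; 4 of the 8 had an unadjusted p under 0.05 (Gata2, Tfap2c, Ascl2 and Esx1), as had 3413 of the 14988 tested genes. Eomes and Esx1 were the 2 genes whose KO-WT and WT-WT libraries did not overlap, a property of 28.2% of all tested genes. KO-KO and WT-KO did not overlap for Cdx2, Gata2 and Tfap2c, against 12.6% of all tested genes.

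Tfap2c was lower in KO-KO than in WT-KO by -0.22 ± 0.0631 (adjusted p 0.0376) and lower in 5 of 5 same-day pairs, by -0.54 to -0.09. The lowest WT-KO library, at 9.70, lay just above the highest KO-KO library, at 9.67. The call was lost in 15 of 30 alternatives, among them without KO-KO replicate 3 (-0.16, adjusted p 0.11), without WT-KO replicate 3 (-0.18, adjusted p 0.0913) or 5 (-0.20, adjusted p 0.109), and within clones E3 and C1 (-0.27, adjusted p 0.197) or 1 and 1-4 (-0.16, adjusted p 0.274). It was also lost without KO-WT replicate 2, WT-KO replicate 4, or KO-KO replicate 1, 2 or 5, at adjusted p-values of 0.051 to 0.086. With Lin28a intact the difference of Tfap2c was 0.001 (95% interval -0.15 to 0.16), and the interaction of the 2 losses was not called (-0.22, adjusted p 0.304).

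Cdx2 went up instead. Without Lin28a it was higher by 0.31 in KO-KO than in WT-KO, in 5 of 5 same-day pairs (0.11 to 0.51), with an adjusted p of 0.016 in the limma fit without the filter, which called 5.01% of its 21685 genes. That adjusted p was 0.0505 to 0.0602 without WT-KO replicate 1, 4 or 5 or KO-KO replicate 1 or 5, and within clones E3 and C1 the difference was 0.22 (adjusted p 0.439). The call was also lost within clones 1 and 1-4 (0.43, adjusted p 0.111) and on the days with all 4 genotypes (0.35, adjusted p 0.109). With Lin28a intact the difference was 0.20 (95% interval 0.03 to 0.37, adjusted p 0.149 without the filter), with 2 of 3 pairs higher. Esx1 was lower in 3 of 3 pairs with Lin28a intact (-0.27 ± 0.115, adjusted p 0.128) and in 4 of 5 without Lin28a (-0.30 ± 0.0987, adjusted p 0.0725). Ascl2 was lower in 5 of 5 pairs without Lin28a (-0.29 ± 0.101, adjusted p 0.0947), and Eomes higher in 3 of 3 pairs with Lin28a intact (0.26 ± 0.0936, adjusted p 0.0797). None of these 4 differences passed in the fit with all 18 libraries. That of Esx1 without Lin28a passed without WT-KO replicate 2 (-0.40, adjusted p 0.0153) or KO-KO replicate 2 (-0.40, adjusted p 0.0234), on the days with all 4 genotypes (-0.50, adjusted p 0.0469) and with the trend in GC content and length removed (-0.30, adjusted p 0.0484), and ran from -0.50 to -0.19 over its alternatives. With Lin28a intact Esx1 passed without WT-KO replicate 2 (adjusted p 0.0499) or 3 (adjusted p 0.049), and Ascl2 without Lin28a passed without WT-WT replicate 3 (adjusted p 0.0486). For Hand1 the intervals ran from -0.29 to 0.31 with Lin28a intact and from -0.16 to 0.35 without Lin28a, and for Gata3 from -0.25 to 0.07 and from -0.22 to 0.05.

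**Figure D4:**
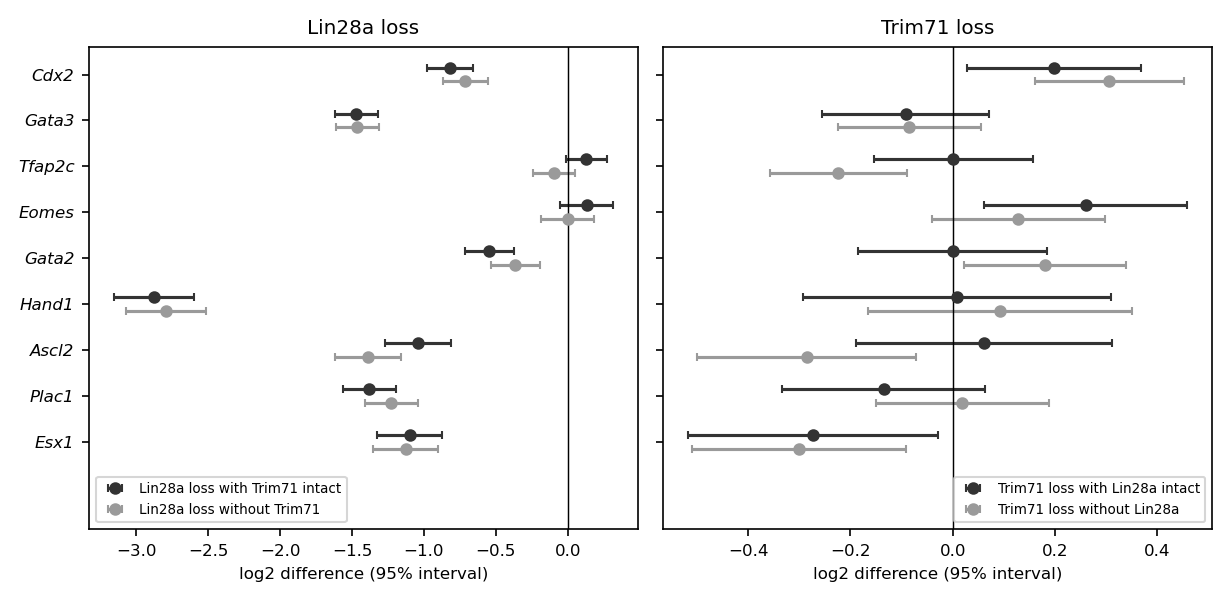
Log2 difference with its 95% interval (horizontal axis) for each gene (rows) after Lin28a loss (left panel, black with Trim71 intact and grey without Trim71) and after Trim71 loss (right panel, black with Lin28a intact and grey without Lin28a); the horizontal scales differ. On the left 7 genes lie below 0 in both comparisons, down to -2.88 for Hand1, and on the right every estimate lies between -0.30 and 0.31.

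The other trophoblast genes were read against the shares of all tested genes called after Trim71 loss, 11.2% with Lin28a intact and 8.38% without Lin28a. Of the 18 regulators 2 were called in each state, near those shares, of the 18 epithelial genes 4 and 5, above them, and of the 14 placental genes 2 and 2. Klf5 was the 1 regulator called higher in both Lin28a states (0.37, adjusted p 0.000647, and 0.36, adjusted p 0.000157), and the fibroblast growth factor receptor Fgfr2 the 1 called lower (-0.40, adjusted p 0.0043, and -0.31, adjusted p 0.00552). Within clones E3 and C1 the adjusted p of Fgfr2 was 0.168 and 0.112, and that of Klf5 with Lin28a intact was 0.141. Klf5 without Lin28a kept its call in all 30 alternatives. Few genes of any kind were called after Trim71 loss in those clones, 10 of 14988 with Lin28a intact and 153 without Lin28a. Of the 18 epithelial genes, the tight junction claudins Cldn4, Cldn6 and Cldn7 were higher with Lin28a intact, by 0.19 to 0.44, and Plet1, a marker of trophoblast progenitors, was lower (-0.27, adjusted p 0.0358). Without Lin28a, Cldn7, Atp1b1 and Lgals3 were higher by 0.23 to 0.33, and Cdh3 and Plet1 were each lower by -0.29. Most of these epithelial calls depended on single libraries. Of 30 alternatives, the call of Cldn4 was lost in 21, among them the omission of any 1 library other than WT-KO replicate 2 or 3 or KO-KO replicate 2 or 3. That of Cldn7 without Lin28a was lost in 20, among them the omission of any 1 library other than WT-WT replicate 3, KO-WT replicate 3, WT-KO replicate 4 or KO-KO replicate 3. Lgals3 lost its call in 12, among them without WT-KO replicate 1, 2, 3 or 5 or KO-KO replicate 1, 2, 3 or 4, and Cdh3 in 8, among them without WT-KO replicate 1, 4 or 5 or KO-KO replicate 1, 2 or 3. The call of Plet1 with Lin28a intact was lost without any 1 of the WT-WT libraries, without KO-WT replicate 2, 3 or 4 or without WT-KO replicate 1, with adjusted p-values of 0.0502 to 0.149. In clones E3 and C1 alone none of Cldn4, Cldn6, Cldn7, Lgals3, Cdh3 and Plet1 was called, the lowest adjusted p being 0.124. Of the 14 placental genes, Ovol2, a zinc finger repressor, was higher with Lin28a intact (0.39, adjusted p 0.00566) and H19 lower (-0.54, adjusted p 0.0349). Without Lin28a, H19 (-0.45, adjusted p 0.0424) and Phlda2 (-0.27, adjusted p 0.0157) were lower. The call of H19 with Lin28a intact was lost in 12 of 30 alternatives, among them without WT-WT replicate 2 or 4, KO-WT replicate 2, 3 or 4, WT-KO replicate 1 or KO-KO replicate 2 (adjusted p 0.0505 to 0.142). Without Lin28a it was lost in 16 of 30, among them without WT-WT replicate 2, KO-WT replicate 2, WT-KO replicate 1, 3, 4 or 5 or KO-KO replicate 2, 3, 4 or 5 (adjusted p 0.0522 to 0.138). Phlda2 lost its call without WT-KO replicate 5 or KO-KO replicate 2 or 3 (adjusted p 0.0519 to 0.0628). Neither Ovol2 nor H19 nor Phlda2 was called within either clone set.

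No difference between the Trim71 effects in the 2 Lin28a states was called for any of the 8 tested genes in the limma interaction, which called 0.0200% of all tested genes; 2 of the 8 had an unadjusted p under 0.05, as had 2256 of the 14988 tested genes. The largest was that of Ascl2, -0.35 (95% interval -0.68 to -0.02, adjusted p 0.318), and for Hand1 the interval ran from -0.31 to 0.48. With both genes lost, KO-KO against WT-WT, 7 of the 8 tested genes were called, against 45.6% of all tested genes; 6 were lower, against 24.6%, and Eomes was higher. Plac1, 1 of the 6, again had to differ. This comparison shares its libraries with those above. Hand1 differed by -2.78, Gata3 by -1.56, Esx1 by -1.40, Plac1 by -1.36, Ascl2 by -1.33 and Gata2 by -0.37, and Cdx2, in the fit without the filter, by -0.51. Eomes was higher by 0.26 ± 0.0866 (adjusted p 0.0229), with all 4 same-day pairs on that side. The adjusted p of Eomes was 0.0832, 0.0514 and 0.0797 when WT-WT replicate 1, 2 or 4 was omitted and 0.0925 when KO-KO replicate 1 was, and in clones E3 and C1 alone the difference was 0.13 (adjusted p 0.499). Gata2 lost its call there too (-0.28, adjusted p 0.137).

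The genes nearest in pattern were taken as those with the smallest root mean square difference over the 18 libraries after each gene was centred on its mean. Hand1 was nearest to Anxa3 (0.131 log2 units), Peg10 (0.142) and Csf1 (0.155). Esx1 was nearest to Plet1os (0.122), Plet1 (0.126) and Flvcr2 (0.135), and Ascl2 to Pdlim2 (0.109), Cited1 (0.114) and Peg13 (0.119). Gata3 was nearest to Adgra2 (0.124), Cyr61 (0.131) and Lin28a itself (0.134), the gene that the Lin28a-null cells lack. For Plac1 the genes were Podxl (0.0792), Klf6 (0.0792) and F2r (0.083), and for Gata2 Atxn7l3b (0.0697), Emc7 (0.0889) and Mcl1 (0.0891). The 2 genes that kept their level lay near genes that vary little, as this measure requires. Tfap2c lay near Pif1 (0.0571), Ubxn10 and Btbd2, and Eomes near Gm12841 (0.074), Fuca2 and Ypel2.

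The tested genes next to each of the 9 on the chromosome (RefSeq gene order) were compared after Lin28a loss; those named were chosen after their values were seen. Nrk, the neighbour of Esx1 on chromosome X and a kinase of the placenta, fell by 1.34 (adjusted p 7.12e-06) and 1.02 (adjusted p 9.74e-05) in the presence and absence of Trim71. C430049B03Rik beside Plac1 fell by 0.96 (adjusted p 1.29e-07) and by 1.05 (adjusted p 4.12e-08). Beside Ascl2 in the imprinted region of chromosome 7, Igf2os fell by 0.57 (adjusted p 0.000198) and by 0.64 (adjusted p 6.99e-05), and Tspan32 fell by 0.98 (adjusted p 0.00478) and by 0.75 (adjusted p 0.0225). In clones 1 and 1-4 alone Tspan32 was -1.16 with Trim71 intact (adjusted p 0.0556) and -0.23 without Trim71 (adjusted p 0.797), and Igf2os without Trim71 was -0.43 (adjusted p 0.0972). Tspan32 without Trim71 also lost its call without KO-WT replicate 1, 2 or 3 or KO-KO replicate 2 or 5 (adjusted p 0.0515 to 0.0833). Neighbours did not share a direction in general: Eefsec beside Gata2 was higher, by 0.34 (adjusted p 0.000134) and 0.22 (adjusted p 0.00412). On the other side of Esx1, Fam199x differed by 0.03 and 0.38, and on that of Plac1, Fam122b differed by -0.19 and -0.02. The neighbours of Hand1 and Gata3 lay between -0.26 and 0.19. Those of Hand1 were called in both Trim71 states, Sap30l lower (adjusted p 0.041 and 0.0452) and Larp1 higher (adjusted p 0.00898 and 0.00254). Of all tested genes, 42.4% with Trim71 intact and 42.8% without Trim71 were called in either direction.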

How the data were processed

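Messenger RNA libraries of 4 genotypes were sequenced, per the labels on a HiSeq1500 after TRIzol extraction and TruSeq preparation. The authors deposited 1 table of normalised expression, whose values fit a log2 scale: they run from -0.71 to 16.3, and raising 2 to them gives sums of 7297919 to 7677445 per library. The submitters' processing notes name CASAVA 1.8, STAR and DESeq2; the build and annotation are not given in the sources used here. Day effects had been removed before deposit: the largest day term was 1.7e-08, against 1.36 with days shuffled. Because that removal uses up degrees of freedom, day was kept as a block (10 residual degrees of freedom); the labels give the day, which pairs the libraries, and with day effects removed a check of shared deviations was void.

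Differences were fitted with limma 3.58.1 in R 4.3.3 (1 mean per genotype, day, eBayes with trend) and tested on simulated data. Genes named from lists were the up to 4 called genes of largest difference per list and comparison; members of counts of 5 or fewer were also named, after their values were seen, and 1 listed gene is not reported here by name. The genes, lists and tests were chosen with earlier results of these data known. The octamer and the let-7 seed were searched after the design was written, and the list and Cdx2 alternatives were chosen after seeing the data. Alternatives covered the day block, the libraries, clones and days used, the filter, the scaling, GC content and length, and the trend.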

Additional observations from a re-analysis of the deposited data

Results flagged for a closer look

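Of 36 groups of libraries (9 genes in 4 genotypes), 2 held a library far from the rest, and chance gives about 1 in 20 groups. The Tfap2c level of KO-KO replicate 3 was 9.42, while the other KO-KO libraries lay between 9.61 and 9.67; its gap was 0.745 of the group's range. The Ascl2 level of WT-WT replicate 3 was 5.92, while the others lay between 6.26 and 6.31; its gap was 0.876 of the range. Both libraries were harvested from clones E3 or C1, on days 3 and 4.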

How the results depend on the processing

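None of the 24 called differences of the 9 genes (of 54 differences) changed direction in any alternative. Of 1551 values of single genes under an alternative, 75 had the opposite sign, over 13 uncalled differences, and none of those values was called. The cause of these changes was not tested.

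Without the day block, the replicate block used here, 2 genes were called after Trim71 loss with Lin28a intact in place of 0 (Eomes and Esx1), and 4 in place of 1 without Lin28a (Gata2, Ascl2, Esx1 and Tfap2c); the counts after Lin28a loss, 6 and 6, and after loss of both, 7, did not move. Leaving out 1 library at a time gave 0 to 1 called genes after Trim71 loss with Lin28a intact and 0 to 2 without Lin28a. It gave 6 after Lin28a loss in both Trim71 states and 6 to 7 after loss of both. After Trim71 loss without Lin28a the count was 0 with only the genotypes compared, in clones E3 and C1 alone, in clones 1 and 1-4 alone, with 75th percentile scaling and in limma without trend, and 2 with the GC content and length trend removed. Over all tested genes, leaving out the block raised the calls after Trim71 loss from 1674 to 4219 with Lin28a intact and from 1256 to 2618 without Lin28a. A stricter filter of 50 units left 3 called genes after Lin28a loss with Trim71 intact, 3 without Trim71 and 3 after loss of both. Of the 9 genes, only Hand1, Tfap2c, Ascl2 and Esx1 passed this filter and were tested. Over the 11133 genes tested, 2487, 2464 and 2778 were called lower in the same order. Of the called genes, Hand1 and Ascl2 passed it only through their Lin28a-intact libraries and so had to differ. Because fewer genes were tested, it also left 7 placental genes lower in place of 11 and 12 with Trim71 intact and without Trim71. Lower primitive endoderm markers were 5 and 4 in place of 9 and 7 in the same order. Removing that GC and length trend raised the share of called genes that were higher from 48% (3049 higher, 3302 lower) to 58.1% (3918 higher, 2823 lower) after Lin28a loss with Trim71 intact, and from 46% to 57.2% (3957 higher, 2957 lower) after loss of both.

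After Trim71 loss with Lin28a intact, leaving out 1 library at a time moved Gata2 from -0.0648 to 0.0635, Hand1 from -0.0567 to 0.11, Tfap2c from -0.0608 to 0.0467 and Ascl2 from -0.0741 to 0.14. Gata2 was 0.00770 with only the genotypes compared and on the days with all 4 genotypes, 0.12 in clones E3 and C1, 0.0171 with 75th percentile scaling and 0.00919 with trimmed mean scaling. Hand1 was -0.0242 with only the genotypes compared and on the days with all 4 genotypes, -0.11 in clones E3 and C1 and -0.0872 with the GC and length trend removed. In clones 1 and 1-4 Tfap2c was -0.15, Ascl2 -0.22 and Plac1 0.14, and Ascl2 was -0.0686 with the GC and length trend removed. Without Lin28a, leaving out 1 library moved Hand1 from -0.0503 to 0.16 and Plac1 from -0.0322 to 0.0642. In clones E3 and C1 they were -0.20 and -0.0944, and on the days with all 4 genotypes -0.0386 and -0.0135.

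After Lin28a loss without Trim71, Eomes ranged from -0.0553 to 0.061 with 1 library left out and was 0.000754 with 75th percentile and 0.00414 with trimmed mean scaling, and Tfap2c was 0.0441 in clones 1 and 1-4. For the interaction, leaving out 1 library moved Gata3 from -0.0339 to 0.0499, Hand1 from -0.068 to 0.16 and Esx1 from -0.17 to 0.0844. In clones E3 and C1 Gata3 was -0.0436 and Hand1 -0.0879, and in clones 1 and 1-4 Ascl2 was 0.0743 and Esx1 0.00227. Gata3 was -0.00984 with 75th percentile scaling, Hand1 -0.0144 on the days with all 4 genotypes, and Esx1 0.0344 with the GC and length trend removed.

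Depth is unknown, so counting error could not be given. Each clone set holds few libraries, and a genotype with 1 library in a set is assumed to vary like the others. Lin28a state and clone cannot be told apart.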
